A study of Mus musculus with 6 samples.

Results

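The interferon regulatory factor (IRF) genes are described here across 6 macrophage arrays. Every probe set that lists Irf1, Irf2, Irf3, Irf4, Irf5, Irf7, Irf8 or Irf9 and no other gene was taken, which gave 14 probe sets of 8 genes, among 45037 probe sets naming 18193 genes. Irf3 had 4 probe sets, Irf4, Irf5 and Irf8 had 2 each, and Irf1, Irf2, Irf7 and Irf9 had 1 each. Where a gene had several, the one of highest mean intensity is called its lead probe set. The groups were LPS-treated macrophages labelled as Trib1 knockout (n = 2), LPS-treated wild-type macrophages of the same Trib1 line (n = 2), LPS-treated wild-type macrophages (n = 1) and wild-type macrophages in medium alone (n = 1). LPS (lipopolysaccharide) comes from the outer membrane of bacteria and acts through the receptor Tlr4. The last 2 arrays are called the LPS pair and, per the series description, serve to define the genes that LPS induces. The labels give neither the site the macrophages came from nor the LPS dose, the time, strain, sex or age, nor the deleted part of Trib1, and they do not say that arrays of a group came from different mice or cultures. The p-values therefore cover the spread between arrays, which may be technical.

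IRF proteins share an amino-terminal DNA-binding domain and bind interferon-stimulated response elements (ISRE) in target promoters. In macrophages, Irf3 and Irf7 are phosphorylated after Toll-like receptor or cytosolic nucleic acid sensing and switch on type I interferon genes, and Irf9 works in a complex with Stat2 to carry the signal of secreted interferon back to the nucleus. Irf1 activates and Irf2 mostly represses interferon-responsive promoters, Irf5 works with the adaptor Myd88 in cytokine induction, Irf4 competes with Irf5 for that adaptor, and Irf8 acts with the factor PU.1 in the formation of macrophages and dendritic cells.

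Several IRF genes are themselves interferon targets, so the 250 bases before the start of each gene were read from the RefSeq promoter table (build GRCm38.p6), which held all 8 genes in 11 windows, and searched on both strands for named motifs. The gamma-activated site (GAS; TTCNNNGAA) was found before 3 of the 8 genes, Irf1, Irf2 and Irf8, and in 7.18% of 27025 genes with a window of that length. The ISRE core (GAAANNGAAA) was found before Irf2 and in 3.04% of all genes. The kB consensus bound by NF-kB was found before Irf1 and Irf2 and in 3.75% of all genes. Irf1, Irf8 and Irf9 had a second window each, for another start, and no motif was found there. The table's starts are those of single transcripts, so a window can lie partly or wholly inside the span of the gene, as for Irf5 and Irf7. Matches of different motifs did not overlap. The 4 GAS matches are shown on the plus strand, which is the gene's strand, with the site in capitals, to set the spacing and flanks of the genes beside each other.
Irf1, 90 bases before the start (chr11:53769914-53769942): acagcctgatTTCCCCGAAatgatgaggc
Irf2, 224 bases before the start (chr8:46739511-46739539): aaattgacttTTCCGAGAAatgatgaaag
Irf8, 171 bases before the start (chr8:120736177-120736205): caaaagtgatTTCTCGGAAagagagcgct
Irf8, 153 bases before the start (chr8:120736195-120736223): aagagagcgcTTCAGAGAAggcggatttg

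The full first windows of these genes are given with every match to the motifs in capitals, beside that of Irf7, the gene whose lead probe set differed most from medium in the LPS pair (Irf5 did across 3 wild-type LPS arrays) and whose window, like that of Irf5, held none. A match is a string of letters and no measured binding, and its absence says only that the letters are not in this window.
Irf1 (chr11:53769764-53770013, plus strand): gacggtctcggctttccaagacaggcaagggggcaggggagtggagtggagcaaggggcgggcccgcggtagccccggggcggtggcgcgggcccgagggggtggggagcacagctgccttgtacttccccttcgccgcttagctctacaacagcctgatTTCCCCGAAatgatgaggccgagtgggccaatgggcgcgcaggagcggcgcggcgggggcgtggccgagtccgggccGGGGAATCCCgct
Irf2 (chr8:46739495-46739744, plus strand): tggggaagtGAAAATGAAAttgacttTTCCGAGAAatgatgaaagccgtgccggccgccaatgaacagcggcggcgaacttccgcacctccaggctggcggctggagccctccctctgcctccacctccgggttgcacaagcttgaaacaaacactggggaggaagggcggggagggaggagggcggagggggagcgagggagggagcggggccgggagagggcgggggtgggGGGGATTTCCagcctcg
Irf8 (chr8:120736108-120736357, plus strand): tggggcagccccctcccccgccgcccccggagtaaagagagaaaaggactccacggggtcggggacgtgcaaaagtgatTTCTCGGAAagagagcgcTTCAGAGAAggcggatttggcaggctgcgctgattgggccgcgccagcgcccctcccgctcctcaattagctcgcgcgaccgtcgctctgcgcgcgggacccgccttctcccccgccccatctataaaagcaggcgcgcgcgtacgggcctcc
Irf7 (chr7:141266425-141266674, minus strand): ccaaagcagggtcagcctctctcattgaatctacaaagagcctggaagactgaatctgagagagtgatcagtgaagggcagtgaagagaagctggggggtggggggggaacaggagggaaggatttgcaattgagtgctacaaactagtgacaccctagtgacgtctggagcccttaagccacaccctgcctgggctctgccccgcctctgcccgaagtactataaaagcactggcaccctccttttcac

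Values are scaled intensities, which hold no absolute amount and are not comparable between probe sets. Values under the floor of 29.9 were taken as not measured above background, and between 57.9% and 63.0% of probe sets lay above it on each array. Trib1 itself measured 88.1 and 20.9 on the knockout-labelled arrays, against 17.9 and 17.5 on the Trib1-line wild-type arrays (1424880_at). On the LPS and medium arrays of the pair this probe set measured 189 and 383. A second Trib1 probe set (1424881_at) overlapped between genotypes, with 32.3 and 38.7, against 20.2 and 63.0. The position of these probe sets relative to the deletion is not given, so the labels could not be checked and the arrays are called knockout-labelled. Xist and Eif2s3y placed the 4 Trib1-line arrays apart from the LPS pair. Xist (1427262_at) was under the floor on all 4 and measured 980 and 1616 on the LPS and medium arrays of the pair, while Eif2s3y (1417210_at) measured 219 to 534 on the 4 and lay under the floor on both arrays of the pair. A comparison of a Trib1-line array with the medium array therefore also spans that difference, and its part was not tested. All 8 macrophage markers, among them Csf1r, Adgre1, Cd68 and Lyz2, were above the floor on all 6 arrays.

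LPS was set against medium in wild-type macrophages to see which IRF genes responded. In the LPS pair Irf7 was 2.25-fold higher and Irf5 1.99-fold lower, and no IRF probe set reached the 4-fold rule (a ratio of at least 4 with the higher value above the floor) in either direction. Of 14 probe sets, 0 rose and 0 fell at least 4-fold in the LPS pair, beside 0.986% and 0.598% of all probe sets. At 2-fold, 2 were higher and 0 lower, beside 5.02% and 6.29%. With 1 array per condition there is no test and no error for these ratios. The 14 had a median log2 ratio of 0.04, against -0.09 over the 29115 probe sets compared.

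**Figure D1:**
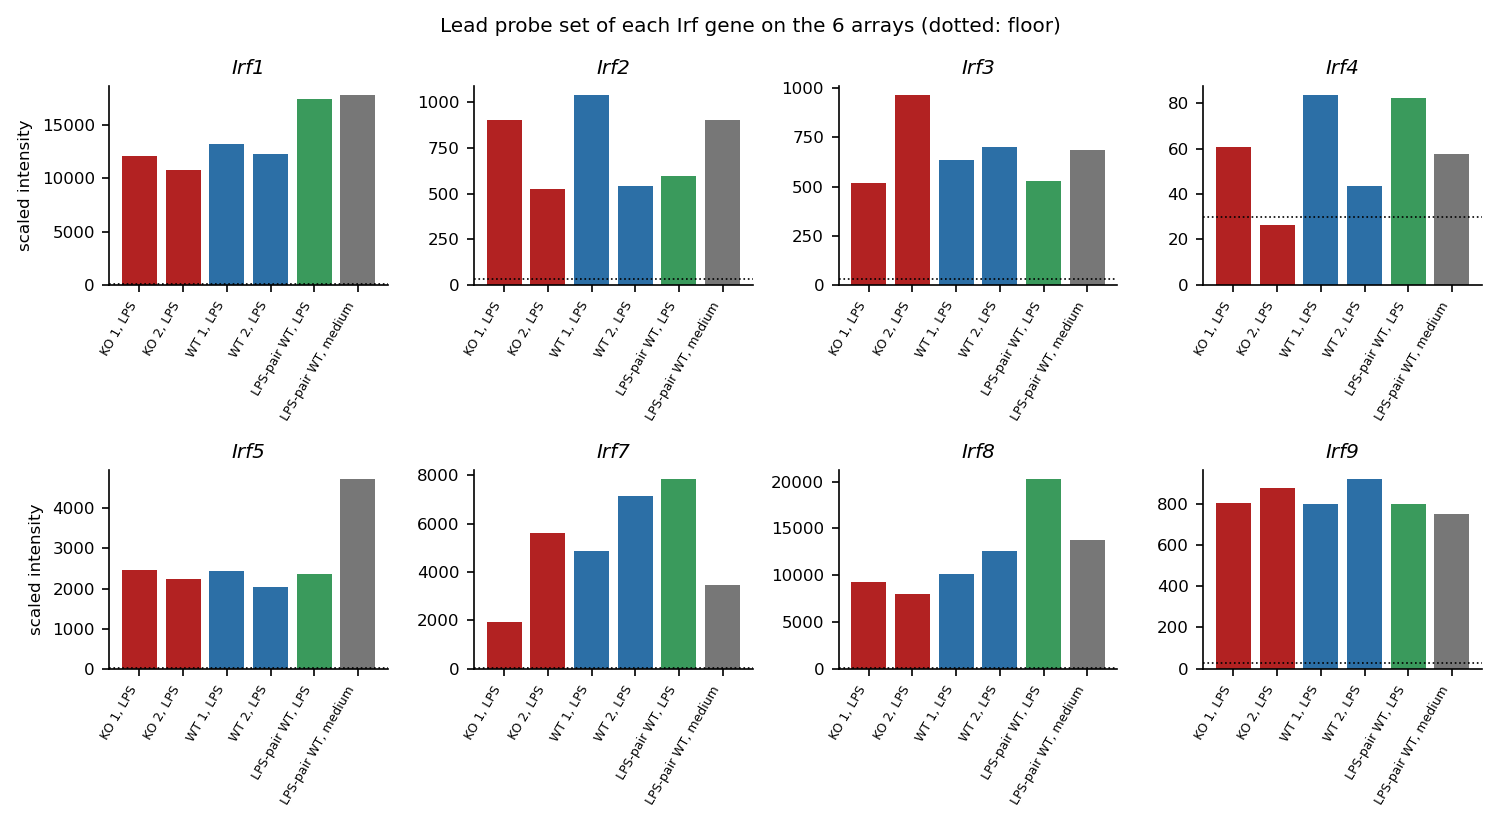
Scaled intensity (linear axis from 0) of the lead probe set of each IRF gene on the 6 arrays, 1 bar per array: knockout-labelled LPS (red), Trib1-line wild-type LPS (blue), LPS-pair LPS (green) and LPS-pair medium (grey). Irf5 is lower on all 5 LPS arrays (2030.4 to 2452) than in medium (4718), and Irf9 stays between 752 and 918.

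Irf7, the interferon-inducible factor that amplifies type I interferon production, measured 7825 after LPS and 3472 in medium in the LPS pair, a ratio of 2.25. On the other LPS arrays it measured 1941 and 5623 in knockout-labelled cells and 4860 and 7159 in Trib1-line wild-type cells. It was thus above medium on 4 of 5 LPS arrays, and knockout 1 lay under medium, at 0.559 of it. Across the 3 wild-type LPS arrays the log2 difference from medium was 0.90 (SE 0.35; limma, Benjamini-Hochberg adjusted p = 0.570, unadjusted p = 0.0376). In that fit the lone medium array is assumed to vary like the LPS arrays.

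Irf5, which promotes inflammatory cytokine transcription downstream of Myd88, was lower than in medium on all 5 LPS arrays. Its lead probe set (1460231_at) measured 2452 and 2246 on the knockout-labelled arrays, 2448 and 2030.4 on the Trib1-line wild-type arrays and 2365 on the LPS array of the pair, against 4718 in medium. The 5 LPS arrays spanned a narrow range and each lay below medium by a factor of 1.92 to 2.32, which in the LPS pair was 1.99, just short of the 2-fold line. Across the 3 wild-type LPS arrays the log2 difference was -1.05 (SE 0.27; limma, adjusted p = 0.300, unadjusted p = 0.00629). Without the LPS array of the pair the log2 difference was -1.08. Only Trib1-line wild-type arrays then stood against the lone medium array. LPS could not be separated there from the difference in Xist and Eif2s3y. The second Irf5 probe set (1449678_at) did not follow: it measured 137 after LPS and 138 in medium in the pair, and the other LPS arrays ran from 61.6 to 165.

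Over the 14 IRF probe sets the limma fit of all 3 wild-type LPS arrays against medium called 0 higher and 0 lower. Over the 28430 probe sets tested it called 0.158% and 0.0106%. Of the 14, 2 (Irf5 and Irf7) had an unadjusted p under 0.05, beside 8.16%. By position alone, 1 of 14, Irf9, was above medium on all 5 LPS arrays and 3 were below it on all 5, beside 19.7% and 21.1% of probe sets above the floor on any array. Those 3 were Irf1, the lead Irf5 probe set and 1 Irf3 probe set (1435271_at). The 5 comparisons share the single medium array.

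**Figure D2:**
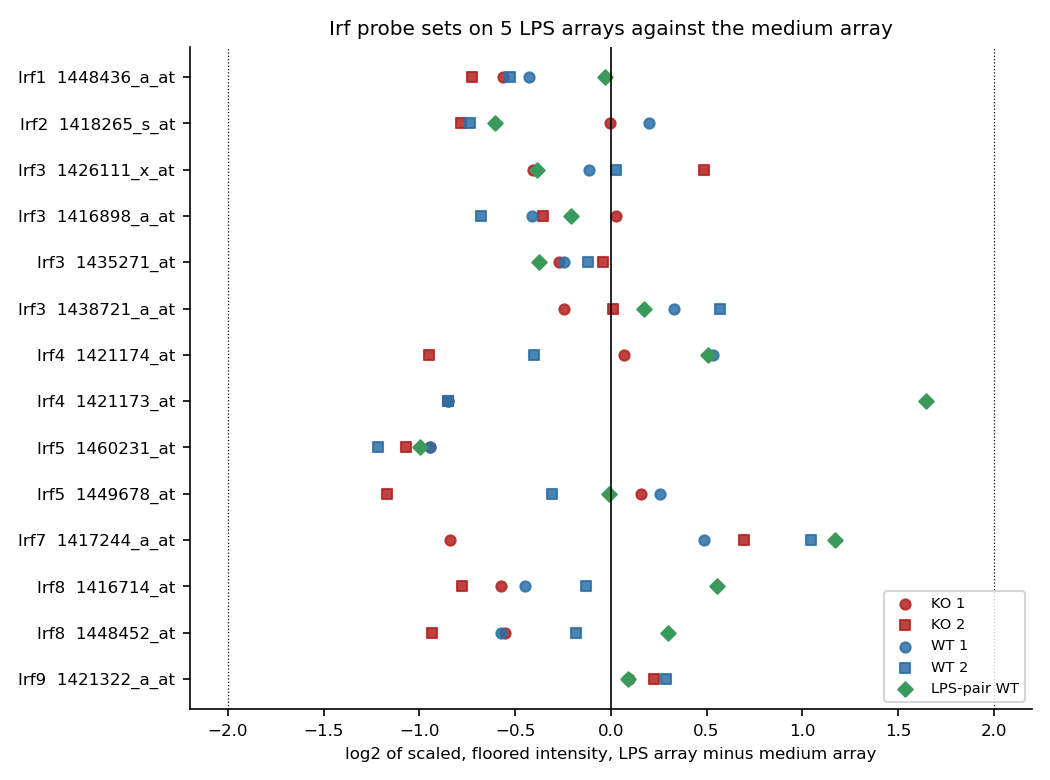
Log2 difference of each LPS array from the medium array for the 14 IRF probe sets, 1 point per array, with dotted lines at the 4-fold rule. The lead Irf5 probe set is left of 0 on all 5 arrays, Irf7 is right of 0 on 4 of 5, and Irf8 is right of 0 on the LPS-pair array and left of 0 on the others.

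Irf8, the lineage factor of macrophages and dendritic cells, differed in direction between the arrays. Its lead probe set (1416714_at) measured 9227 and 8017 on the knockout-labelled arrays, 10080.0 and 12588 on the Trib1-line wild-type arrays and 20243 on the LPS array of the pair, against 13759 in medium. LPS in the pair was thus 1.47-fold above medium, and all 4 Trib1-line arrays were below it. The second probe set (1448452_at) showed the same arrangement, with 9429 and 7240.2 on the knockout-labelled arrays, 9263 and 12168 on the Trib1-line wild-type arrays and 16966 on the LPS array of the pair, against 13812 in medium. The summed intensity of B cell markers was highest on the same LPS array, and B cells also express Irf8 and Irf4. That sum over 5 markers was 313 and 517 on the knockout-labelled arrays, 539 and 704 on the Trib1-line wild-type arrays, 2469 on the LPS array of the pair and 1420 in medium, with all 5 above the floor on all 6 arrays. Of the 5, Blk was not highest there, with 149 after LPS and 151 in medium in the pair. B cell markers were not alone in this. The sums of T and NK cell markers (477) and mast cell markers (682) were also highest on that array, against 204 and 609 in medium. The sums of the other marker lists were not. The part of these markers in the Irf8 values was not tested, and in bulk RNA fewer cells of a type and less RNA per cell cannot be told apart.

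Irf4, the factor of B cells, plasma cells and alternatively activated macrophages, was near the floor and its probe sets disagreed. On 1421173_at it measured 168 after LPS and 53.8 in medium in the pair, a ratio of 3.13, and was under the floor on all 4 Trib1-line arrays, with 6.41 and 4.98 in knockout-labelled and 22.8 and 14.8 in wild-type cells. On 1421174_at it measured 60.5 and 26.2 on the knockout-labelled arrays, 83.4 and 43.7 on the Trib1-line wild-type arrays and 82.1 on the LPS array of the pair, against 57.7 in medium. There 3 of 5 LPS arrays were above medium and 2 below. The higher reading on 1421173_at was therefore seen on 1 LPS array of 5. On that array the summed B cell, T and NK cell and mast cell markers were also highest.

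Irf1, an activator induced by interferon gamma, and Irf2, its antagonist, were not higher after LPS than in medium in the LPS pair. Irf1 measured 12057 and 10776 on the knockout-labelled arrays, 13205 and 12326 on the Trib1-line wild-type arrays and 17445 on the LPS array of the pair, against 17788 in medium. The LPS-pair values differed by a factor of 1.02, while the 4 Trib1-line arrays were below medium by 1.35 to 1.65. Irf2 measured 902 and 527 on the knockout-labelled arrays, 1038 and 544 on the Trib1-line wild-type arrays and 596 on the LPS array of the pair, against 906 in medium. The 2 arrays numbered 1 were close to medium, and the 2 numbered 2 and the LPS array of the pair were lower.

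Irf3, the constitutive factor that starts the interferon response, and Irf9, the DNA-binding subunit of the interferon-stimulated complex, differed from medium by at most 1.40-fold on any LPS array by their lead probe sets. The lead Irf3 probe set (1426111_x_at) measured 518 and 964 on the knockout-labelled arrays, 636 and 701 on the Trib1-line wild-type arrays and 527 on the LPS array of the pair, against 688 in medium. The other Irf3 probe sets ran from 189 to 309 (1416898_a_at), 118 to 153 (1435271_at) and 24.4 to 52.6 (1438721_a_at, around the floor) over the 6 arrays. Irf9 measured 803 and 878 on the knockout-labelled arrays, 799 and 918 on the Trib1-line wild-type arrays and 798 on the LPS array of the pair, against 752 in medium. Its log2 range over the 6 arrays was 0.29, the smallest of the 14 IRF probe sets. As background, Irf3 protein is activated by phosphorylation, which an RNA level does not record.

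The genotypes were compared after LPS, the contrast named by the series description. No IRF probe set passed the test. Of 13 tested, 0 were higher and 0 were lower in knockout-labelled cells (limma, Benjamini-Hochberg adjusted p under 0.05 over 29078 probe sets), beside 0% in either direction over the whole table, and 0 had an unadjusted p under 0.05, beside 4.99%. Both knockout-labelled arrays were above both wild-type arrays for 1 of 13 and below for 3 of 13, beside 15.4% and 16.3% of all probe sets tested. The 8 lead probe sets had a median log2 difference of -0.14, with 6 below 0 and 2 above, against -0.01 over all probe sets tested. With 2 arrays in each genotype, the smallest two-sided p of an exact permutation test is 0.333.

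**Figure D3:**
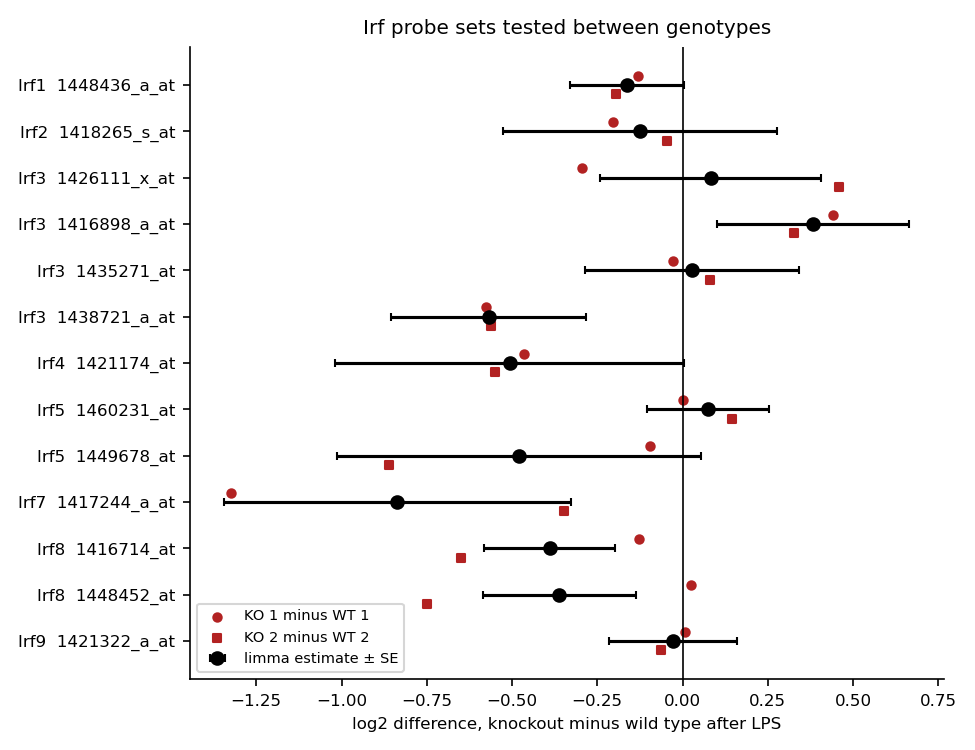
Log2 difference, knockout-labelled minus wild type after LPS, for the 13 IRF probe sets tested: limma estimate with its SE (black; n = 2 per genotype) and the differences between arrays of the same number (red). Irf7 lies farthest from 0, at -0.84, with -1.32 for the arrays numbered 1 and -0.35 for those numbered 2.

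Irf7 had the widest difference, with 1941 and 5623 on the knockout-labelled arrays against 4860 and 7159 on the wild-type arrays. The groups overlapped, since knockout 2 exceeded wild type 1. The log2 difference was -0.84 (SE 0.51; limma, adjusted p = 0.999, unadjusted p = 0.154). It rested on knockout 1: without that array the log2 difference was -0.07 (adjusted p = 1.00), and without knockout 2 it was -1.60 (limma, adjusted p = 0.0475), the only setting in which an IRF probe set was called between genotypes. That setting sets 1 knockout-labelled array against 2, takes the knockout spread to be that of wild type, and called 36 probe sets higher and 32 lower over the whole table.

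Irf8 measured 9227 and 8017 on the knockout-labelled arrays, against 10080.0 and 12588 on the wild-type arrays, on its lead probe set. The groups did not overlap there, and the log2 difference was -0.39 (SE 0.19; limma, adjusted p = 0.999). On the second probe set, with 9429 and 7240.2 against 9263 and 12168, the groups overlapped and the log2 difference was -0.36 (SE 0.22; limma, adjusted p = 0.999). Irf1 did not overlap either, with 12057 and 10776 against 13205 and 12326, but the log2 difference was -0.16 (SE 0.17; limma, adjusted p = 0.999).

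For Irf3 the probe sets pointed in different directions. On 1416898_a_at both knockout-labelled values (309 and 237) were above both wild-type values (227 and 189), with a log2 difference of 0.38 (SE 0.28). On 1438721_a_at both were below (24.4 and 35.6 against 44.5 and 52.6), with a log2 difference of -0.57 (SE 0.29). The lead probe set overlapped, at 0.08 (SE 0.32), and 1435271_at stood at 0.03 (SE 0.31), all with a limma adjusted p = 0.999. The lead probe sets of Irf2 (-0.12, SE 0.40), Irf4 (-0.51, SE 0.51), Irf5 (0.07, SE 0.18) and Irf9 (-0.03, SE 0.19) overlapped between genotypes as well, and the second Irf5 probe set stood at -0.48 (SE 0.53). Irf4 probe set 1421173_at was under the floor on all 4 arrays and was not tested.

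Marker genes of other cells had unequal sums on the same arrays. Neutrophil markers summed to 16289 and 7743 on the knockout-labelled arrays, against 1442 and 1428 on the wild-type arrays (5 of 6 listed markers had a probe set), and mesothelial and stromal markers to 1383 and 3224, against 907 and 1004 (6 of 6). B cell markers (5 of 6) summed to 313 and 517, against 539 and 704, and dendritic cell markers (6 of 6), of a cell type that depends on Irf8 and Irf4, to 1632 and 2608, against 3383 and 4689. The dendritic cell sum was mostly Itgax, which macrophages also express (1244 and 2233, against 3031 and 4055). Siglech, near the floor, was also lower on both knockout-labelled arrays (36.0 and 20.5, against 73.9 and 37.1). Flt3, Zbtb46, Xcr1 and Ccr7 overlapped between genotypes. In the neutrophil sum S100a8 measured 8853 and 7314, against 1251 and 1238. S100a9 measured 6906 and 206 and Camp 220 and 66.9, each with both wild-type arrays under the floor. Mpo overlapped, and so did Ngp, with 219 and 68.7, against 99.9 and 80.0. Mast cell markers (4 of 4) summed to 135 and 198, against 378 and 577, T and NK cell markers (6 of 7) to 193 and 251.3, against 256 and 337, and plasma cell markers (4 of 4) to 6948 and 7606, against 4794.0 and 6819. The plasma cell sum was mostly Xbp1 and Sdc1, while Jchain overlapped (40.7 and 64.2, against 62.3 and 139). In the mast cell sum Cpa3 measured 47.8 and 118, against 297 and 367, while Kit overlapped (64.3 and 31.7, against 13.7 and 70.5). Only 1 mast cell marker, 1 T and NK cell marker and 2 dendritic cell markers were above the floor on all 6 arrays. The neutrophil list and the mesothelial and stromal list had 3 each. Since intensities are not comparable between probe sets, a sum mostly follows its brightest ones. No list had a marker under the floor on all 6 arrays. None of the markers tested was called by limma, and neither was any other probe set of the whole table. Their part in the IRF values was not tested.

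Genes whose values were arranged most like those of an IRF gene were looked up for the 3 members with a log2 range of at least 1 and all arrays above the floor, among 4640 genes meeting the same conditions. The likeness is a Pearson correlation over 6 arrays and is given as a description. Closest to Irf5 were Nr2f6 (0.996), Gnpda1 (0.994) and Cebpa (0.989), each with its highest value in medium (305, 1362 and 4157). Closest to Irf7 were Ramp3 (0.992), Zbtb21 (0.983) and Setdb2 (0.979), each lowest on knockout 1 (54.4, 124 and 263). Closest to Irf8 were Pou2af1 (0.980), a coactivator of B cells, Trio (0.971) and Pax5 (0.970), the B cell lineage factor, which is also 1 of the B cell markers above. All 3 were highest on the LPS array of the pair, at 392, 933 and 135. The arrays of these comparisons differ in line and treatment together.

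The IRF genes were then set beside lists of the genes upstream and downstream of them. Upstream signalling genes carry the signal from Toll-like and RNA receptors to the kinases that activate Irf3 and Irf7. In the LPS pair 1 of 12 rose at least 4-fold and 0 fell, with a median log2 ratio of 0.55. The one was Ifih1, a cytosolic RNA sensor, with 9891 after LPS and 2289 in medium (4.32-fold). Of 6 interferon and receptor genes, only Ifng rose at least 4-fold in the LPS pair. It measured 904 after LPS, with a medium value under the floor (at least 30.2-fold). Ifnb1, the interferon that Irf3 induces, was picked after its values were seen, and measured 51.7 after LPS and 54.9 in medium. The Trib1-line wild types disagreed on Ifnb1. Wild type 1 lay under the floor at 29.0, while wild type 2 reached 220, which was 4.01-fold above medium. Knockout 1 read 52.0 and knockout 2 read 67.8.

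In the Jak-Stat arm 0 of 5 genes reached 4-fold, with Jak2 at 3.68-fold and Stat2 at 1.66-fold, neither past the rule. Among 6 turnover and feedback genes, Usp18, which removes the modifier Isg15 from proteins and dampens interferon signalling, rose 6.01-fold, with 6656 after LPS and 1107 in medium. Of 14 partners and co-regulators, 0 rose and 0 fell 4-fold. The co-repressor gene Irf2bp2 came closest, with 422 after LPS and 1590 in medium (3.76-fold lower), and its relative Irf2bpl measured 170 and 481 (2.84-fold lower).

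Targets were the list with the most rises: 10 of 24 were at least 4-fold higher and 0 lower, with a median log2 ratio of 0.81. They were Il12b (171-fold), Nos2 (170-fold), Il12a (39.7-fold), Ccl5 (17.4-fold), Rsad2 (8.05-fold), Mx1 (8.18-fold), Mx2 (at least 10.5-fold), Ifit1 (5.60-fold), Oasl1 (4.80-fold) and Cd40 (4.30-fold). The background of 0.986% applies to these counts too, and over 13700 genes with 1 probe set each it was 1.21%. The fit of 3 wild-type LPS arrays against the lone medium array called 4 of the 24 higher (limma, Benjamini-Hochberg adjusted p under 0.05) and 0 lower. Over all 28430 probe sets tested, that fit called 0.158% higher and 0.0106% lower.

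**Figure D4:**
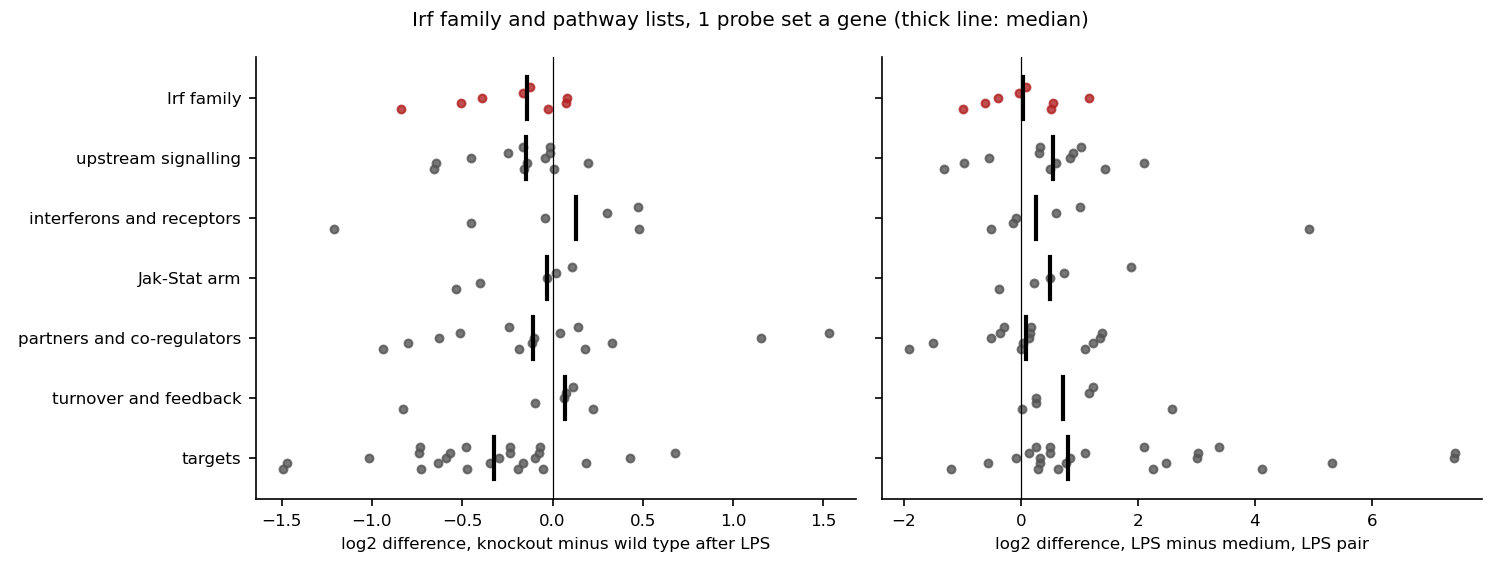
Log2 differences of the lead probe sets of the IRF family (red) and of 6 pathway lists (grey), for knockout-labelled minus wild type after LPS (left) and LPS minus medium in the LPS pair (right), with the median of each list as a thick line. Target genes have medians of -0.32 (left) and 0.81 (right), and IRF genes of -0.14 and 0.03.

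Between genotypes 0 of 67 pathway genes were called in either direction (limma), beside 0% of all probe sets tested. The named genes below did not pass. Targets had 21 of 24 log2 differences below 0, with a median of -0.32, while 48.9% of 13897 genes with 1 probe set each were below 0, with a median of 0.01. Without knockout 1 the count was 16 of 24 and the median -0.10, and without wild type 2 it was 17 of 24 and -0.11. Without wild type 1 the count was 21 of 24 and the median -0.36. Without knockout 2 they were 20 of 24 and -0.33. Ifit2, an antiviral RNA-binding protein, measured 1914 and 10297 on the knockout-labelled arrays, against 9366 and 16638 on the wild-type arrays (log2 -1.49, SE 0.78). Mx1, an antiviral GTPase, measured 749 and 3658, against 3131 and 6696 (log2 -1.47, SE 0.77). As for Irf7, knockout 1 was the lowest of the 4 arrays for Ifit2 and Mx1, and the groups overlapped. Not all targets were arranged so. Both knockout-labelled arrays were below both wild-type arrays for 5 of 24 and above for 2. Over all probe sets tested these shares were 16.3% and 15.4%. Among the 5 was Il12b, with 8829 and 9118, against 15341 and 14355 (log2 -0.73, SE 0.16). It had the smallest p of the list (limma, unadjusted p = 0.00447, adjusted p = 0.872).

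The other lists had medians nearer to 0 than targets with all 4 arrays, and also without wild type 1 or without knockout 2. They did not without knockout 1 or without wild type 2. Without wild type 2 the interferon and receptor median was 0.28 and that of partners -0.24, against -0.11 for targets. Without knockout 1 the Jak-Stat median was -0.33 and that of partners -0.20, against -0.10 for targets. Upstream genes had a median of -0.15 with 10 of 12 below 0 (6 of 12 without knockout 1). Ddx58, a sensor of viral RNA, stood at -0.66 (SE 0.55) and Ifih1 at -0.65 (SE 0.58). Turnover and feedback genes had a median of 0.07 (-0.15 without wild type 1), with Usp18 at 2608 and 8375 on the knockout-labelled arrays, against 6605 and 10432 on the wild-type arrays (log2 -0.83, SE 0.56), and Socs3 at 0.22 (SE 0.19). Without knockout 2, where knockout 1 alone stands against the wild-type arrays and their spread, Usp18, Ifit2 and Mx1 were called lower, which the fit of all 4 arrays did not do. Interferon and receptor genes had a median of 0.13, with Ifng at -1.21 (SE 0.59) and Ifngr1 at 0.48 (SE 0.22). The Jak-Stat arm had a median of -0.03, with Stat2 at -0.53 (SE 0.19) and Tyk2 at -0.40 (SE 0.25).

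Partners and co-regulators had a median of -0.11, which ran from -0.24 without wild type 2 to 0.13 without wild type 1, and both widest differences were above 0. Irf2bp2 measured 2515 and 1006 on the knockout-labelled arrays, against 1126 and 455 on the wild-type arrays (log2 1.15, SE 0.58). Irf2bpl measured 358 and 60.9, against 87.3 and 10.5 (log2 1.53, SE 0.95), with wild type 2 under the floor. For both genes array 1 was higher than array 2 within each genotype, and the groups overlapped. All 4 Irf2bp2 probe sets had a log2 difference above 0, between 0.83 and 1.15, and none passed (limma).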

How the data were processed

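RNA of 6 macrophage samples was measured on 1 one-colour Affymetrix array each, from total RNA labelled as biotinylated cRNA per the labels' protocols. The deposited values are probe set intensities on a linear scale, made by the authors with MAS5 per the submitters' processing notes. Version and scaling target are not given in the sources used here. The 2% trimmed mean stood at 500 in the LPS pair and at 95.5 to 107 on the other arrays, so each array was scaled to a common 234. Control probe sets (64) were left out, the pooled 40th percentile (29.9) was the floor, and log2 was taken. Of 45037 probe sets, 34945 listed 1 gene, 932 several and 9160 none, by the platform annotation with symbols updated through RefSeq.

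Genotypes, and 3 wild-type LPS arrays against medium, were tested by limma 3.58.1 under R 4.3.3 (eBayes with a trend, Benjamini-Hochberg over all probe sets that exceeded the floor on 2 or more of the 4 arrays). LPS against medium used a 4-fold rule. Median log2 over all probe sets in the LPS pair was -0.09. The limma step was tested on simulated data. Named were all IRF probe sets, and from each list the members past the rule or else the 2 widest differences. The members and lists were chosen with earlier results of these data known, and the motifs after the values were seen. Number of arrays limits precision. Alternatives tried were unscaled deposited values, quantile normalization, other floors, log2 of the value plus 16, a looser filter, no trend, a replicate block, an added wild type, 1 probe set per gene, left-out arrays, each Trib1-line wild type as the LPS array, and 2- and 8-fold rules. Some listed pathway genes, Ticam2, Irak4, Traf3, Isg15 and Il27 among them, were not analysed here. Figures used matplotlib 3.10.9 in Python 3.11.15.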

Additional observations from a re-analysis of the deposited data

How the results depend on the processing

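No IRF probe set was called between genotypes under any alternative that kept all 4 arrays (limma). Leaving out 1 array gave 0 to 1 calls among IRF probe sets (Irf7, without knockout 2) and 0 to 3 among pathway genes, where the whole table had 36 higher and 32 lower without knockout 2, 19 and 9 without knockout 1, and 5 and 12 higher with 0 lower without wild type 1 and 2. Each such fit takes the spread of a lone array from the other genotype. For the 3 wild-type LPS arrays against medium, the Irf5 log2 difference ran from -1.11 to -0.97 with 1 left out. Without the LPS array of the pair, LPS could not be separated from the line. For LPS against medium, a 2-fold rule gave 2 IRF probe sets and 28 pathway genes, against 0 and 13 at 4-fold, and an 8-fold rule gave 8 pathway genes, by construction. Quantile normalization gave 10 pathway genes and lost Ifih1, Cd40 and Oasl1. Wild type 1 or 2 of the Trib1 line as the LPS array gave 11 and 18, with Irf2bpl called lower under both and Ciita under the second. There the log2 difference from medium turned sign for Irf2 (0.20, wild type 1), Irf3 (0.03) and Irf4 (-0.40, both wild type 2) and Irf8 (-0.45 and -0.13). The labels number the Trib1-line arrays but do not say that a number marks a shared animal or batch. Deviations from the group means correlated at r = 0.35 over probe sets between same-numbered arrays. With the number as a replicate block, 0 IRF probe sets and 1 pathway gene (Irf2bp2) were called, against 0 and 0, and over all probe sets 85 were higher and 31 lower, against 0 and 0 without it. No difference that turned sign had passed a test. Between genotypes Irf9 stood at 0.040 with the values as deposited and 0.0058 with the added wild type. With the values as deposited, against medium, Irf4 stood at -1.18, Irf7 at -0.66 and Irf9 at -1.41, since the arrays were deposited on different scales. With 1 array left out, the genotype differences ran from -0.59 to 0.34 (Irf2), -0.37 to 0.53 (Irf3), -1.02 to 0.0022 (Irf4), -0.061 to 0.21 (Irf5) and -0.13 to 0.072 (Irf9), and Irf8 against medium from -0.29 to 0.21. Where no construction is named, the cause was not tested. Between genotypes Irf1, Irf7 and Irf8 were below 0 under all 14 alternatives run, and against medium in the LPS pair Irf5 was below 0 and Irf7 above 0 under all 7. Irf4 and 1 Irf3 probe set are limited by signal near background.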
